A study of Mus musculus with 550 samples.

Results

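A set of 9 genes of the machinery that reads methylated CpG and builds silent chromatin were followed in embryoid bodies lacking either de novo DNA methyltransferase. They were Mbd1, Mbd2, Mbd3, Trim28, Setdb1, Zfp57, Cbx5, Ehmt2 and Suv39h1, chosen by name as 9 of the 55228 genes counted, with no measured value used in the choice. Single cells came from wild type (WT) E14 mouse embryonic stem cells of strain 129/Ola, from Dnmt3a -/- (3AKO) cells and from Dnmt3b -/- (3BKO) cells, grown as embryoid bodies without LIF to day 3 or day 9. Full-length cDNA was made from each sorted live cell by Smart-seq2, in 2 batches of plate columns. Of 550 cells, 486 had at least 50000 reads, at least 2000 genes and at most 50% mitochondrial reads, with 21 to 61 kept cells in each of the 12 libraries (1 genotype, day and batch). The study's methods describe more than 1 knockout clone per genotype, but the labels name no culture or clone for a cell, and the link between clones and batches is not given in the sources used here. Each of the 6 groups was therefore handled as 1 sample, no test was possible between genotypes or days, and cells were not used as replicates.

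Summed reads per library ranged from 8071118 to 22867811, and kept cells held a median of 263901.5 reads. The levels of the 9 genes are given as CPM, reads per 1000000 summed reads of a library, and a difference between 2 groups is the log2 ratio of CPM + 1. Exact Poisson 95% intervals cover the counting error of reads only. The reads carry no molecular identifiers, so copies of 1 molecule can be counted apart and the intervals can be too narrow for molecules. The interval of a log2 ratio joins opposite ends of the 2 Poisson intervals and is not itself a 95% interval. The median mitochondrial share was 3.58 to 6.31% in batch 1 libraries and 9.09 to 13.5% in batch 2 libraries, so the batches are shown side by side throughout. The 8 pluripotent epiblast markers were each read in at least 20% of the cells of all 6 groups, with summed levels of 6471 to 10230 CPM. The meso-endoderm markers summed to 8.995 to 75.7 CPM and the neuroectoderm markers to 234.8 to 399.1 CPM, and no fibroblast marker reached 20% of the cells of a group. The 5 trophoblast markers summed to 16.94 to 105.4 CPM, with Cdx2 at 0 in every group. The Dnmt3a level went against the labels of both day 3 batch 2 mutant libraries. Dnmt3a stood at 334.5 CPM in the library labelled 3AKO and at 12.8 CPM in the library labelled 3BKO, while batch 1 read 25.8 and 586.7 CPM. Dnmt3b read 85.1 and 185.0 CPM in these 2 libraries and 523.2 CPM in the matching WT library, lower under both labels, so it does not by itself go against the 3BKO label. Day 3 mutants were therefore compared with WT in batch 1 alone, and their batch 2 values are given under the labels.

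Methyl-CpG binding domain proteins recognise methylated CpG and pass the signal to enzymes that compact chromatin. MBD2 and MBD3 are alternative subunits of the NuRD deacetylase and remodelling complex, MBD3 itself having little affinity for methylated CpG, and MBD1 works with the histone methyltransferase SETDB1. ZFP57 is a KRAB zinc finger protein that binds a methylated hexamer at imprinting control regions and recruits TRIM28 (KAP1), the scaffold that brings SETDB1 and HP1 proteins. SETDB1 and SUV39H1 trimethylate lysine 9 of histone H3, SUV39H1 mainly at pericentromeric repeats, and EHMT2 (G9a) adds the dimethyl mark. CBX5 is HP1 alpha, which binds methylated lysine 9. In embryonic stem cells several of these factors, though not all, help keep imprints or retroelements silent. Repeat elements themselves were not counted here, because the submitted counts left out reads that map to several places.

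In GRCm38, Mbd3 lies on the minus strand at chr10:80392539-80399550 and Trim28 on the plus strand at chr7:12999114-13031035. Setdb1 is at chr3:95323525-95357202 (minus), Zfp57 at chr17:37001163-37010635 (plus) and Ehmt2 at chr17:34898469-34914052 (plus). Cbx5 is at chr15:103191544-103239816 (minus) and Suv39h1 at chrX:8061171-8074760 (minus). All 9 are protein-coding genes counted over their exons. Of the exonic bases, 4.73% of Setdb1 are shared with the opposite-strand genes Cers2 and Gm37500 and 14.6% of Suv39h1 with Gm14820. Reads of such partners cannot be told apart without strand, and the sources used here do not state a stranded count. The other 7 genes share no exonic base with another annotated gene.

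The sequences just upstream of 3 genes are shown because these were the genes that passed the limit used below in a contrast of genotypes at day 9. Each run is the 250 bases before the RefSeq transcription start closest to the annotated gene start, 5′ to 3′ on the gene's strand, with CpG dinucleotides in capitals. They lie at chr17:34898224-34898473 (plus) for Ehmt2, chrX:8074761-8075010 (minus) for Suv39h1 and chr17:37000913-37001162 (plus) for Zfp57, in GRCm38.p6.
Ehmt2: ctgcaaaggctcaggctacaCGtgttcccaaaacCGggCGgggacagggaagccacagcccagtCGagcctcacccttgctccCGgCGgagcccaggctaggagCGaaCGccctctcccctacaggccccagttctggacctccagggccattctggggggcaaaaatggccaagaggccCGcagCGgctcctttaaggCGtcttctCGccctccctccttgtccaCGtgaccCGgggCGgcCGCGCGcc
Suv39h1: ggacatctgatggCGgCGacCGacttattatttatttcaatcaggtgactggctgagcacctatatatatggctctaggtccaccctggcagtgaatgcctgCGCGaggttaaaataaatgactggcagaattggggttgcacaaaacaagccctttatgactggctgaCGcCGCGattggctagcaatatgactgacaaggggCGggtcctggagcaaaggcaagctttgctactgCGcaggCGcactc
Zfp57: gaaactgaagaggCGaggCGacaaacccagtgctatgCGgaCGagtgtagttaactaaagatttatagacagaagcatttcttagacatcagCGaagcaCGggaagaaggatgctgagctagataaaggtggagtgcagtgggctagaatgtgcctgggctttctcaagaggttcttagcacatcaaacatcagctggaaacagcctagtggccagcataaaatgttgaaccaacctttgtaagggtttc

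The Ehmt2 window held 18 CpG, the Suv39h1 window 11 and the Zfp57 window 6, where the median of 32851 mouse windows of the same length was 6. Fewer CpG were present in 78.3%, 64.4% and 49.6% of those windows, respectively. Zfp57 has 3 RefSeq starts, and its other windows held 3 and 7 CpG, and at the start nearest the annotated one it had the fewest CpG of the 7 genes with a window used here. At the other starts of Ehmt2 and Suv39h1 the windows held 36 and 25 CpG. The hexamer TGCCGC, the letters bound by ZFP57 when methylated, was searched on both strands and was found in none of the 3 windows shown. It was present in 8.68% of all windows, among them those of Trim28 and of the second starts of Ehmt2 and Suv39h1. These counts describe letters only, as no methylation was measured in these cells.

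Per kilobase of exon, Trim28 was the most abundant of the 9 genes, with a median of 118.2 CPM per kilobase over the 12 libraries. Mbd3 followed at 54.6, Zfp57 at 34.95 and Cbx5 at 25.9 on the same scale. The 3 lysine 9 methyltransferases formed a lower tier, with medians of 6.32 for Ehmt2, 5.63 for Suv39h1 and 4.08 for Setdb1. Mbd2 (0.945) and Mbd1 (0.546) were barely read. Trim28 stood above Mbd3 in all 12 libraries, Mbd3 above Zfp57 in 10, Zfp57 above Cbx5 in 10, and Cbx5 above Ehmt2 in 12 with no overlap of their ranges. Ehmt2 exceeded Suv39h1 in 7 of 12 libraries and Mbd2 exceeded Mbd1 in 6, so neither pair was ordered beyond its spread. Suv39h1 exceeded Setdb1 in 10 libraries, and Setdb1 exceeded Mbd2 in 12.

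**Figure D1:**
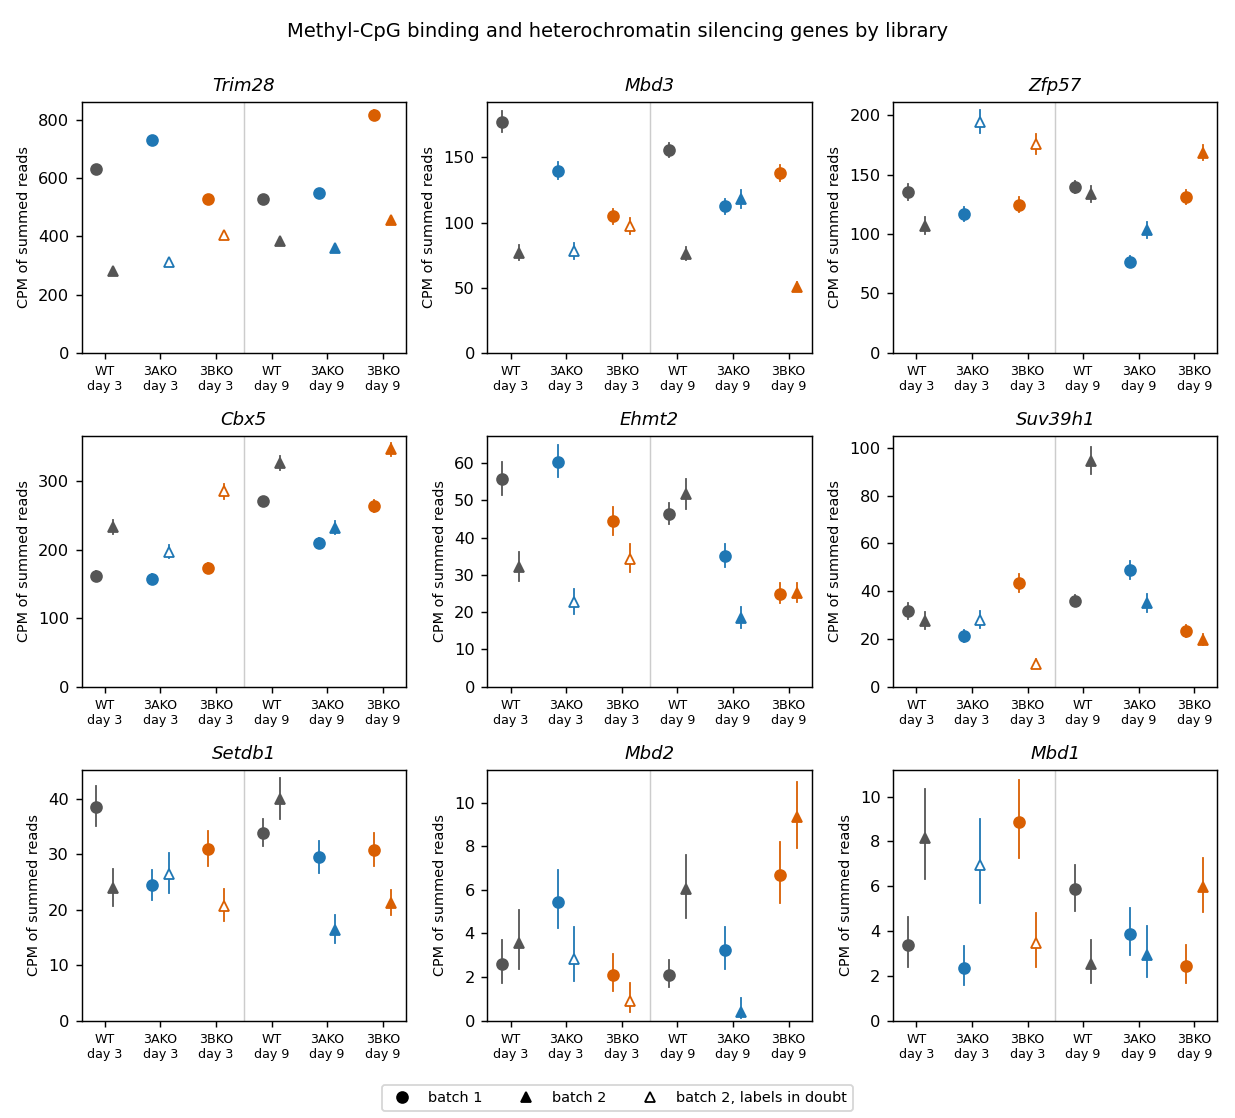
CPM of summed reads (vertical axis, linear) of each gene in the 6 groups (horizontal axis), 1 point per library with its exact Poisson 95% interval, where circles are batch 1, triangles batch 2 and open triangles the 2 libraries whose labels are in doubt. Zfp57 was lowest in the 3AKO day 9 libraries (76.5 and 103.3), Suv39h1 reached 94.6 in 1 WT day 9 library, and Trim28 was lower in batch 2 in all 6 groups.

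The share of cells that showed each gene followed this order only in part. Over all kept cells, without thinning, Trim28 came first at 99.4%. Cbx5 (97.5%) stood above Zfp57 (87.9%) and Mbd3 (87.45%). Setdb1 (72.8%) stood above Ehmt2 (68.9%) and Suv39h1 (60.1%), and Mbd1 (20.2%) above Mbd2 (15.0%). After each cell was thinned to 50000 reads, Trim28 was read in 97.6 to 100% of the cells of a group, Cbx5 in 89.8 to 98.8% and Mbd3 in 68.7 to 94.9%. Mbd1 was read in 7.87 to 14.5% and Mbd2 in 3.37 to 14.9% of thinned cells. These shares limit cells with a read, not cells that express the gene. A thinned cell showed a median of 6 of the 9 genes in each day 3 group and of 5 in each day 9 group.

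Several of these genes differed between the batches in one direction. Trim28 was lower in batch 2 than in batch 1 in 6 of 6 groups, with a median log2 difference of -0.72, and Mbd3 was lower in 5 of 6 (median -0.93). Cbx5 was higher in batch 2 in 6 of 6 groups, with a median of 0.36. The other 6 genes went both ways. A genotype difference below is described as passing only when it had the same sign and a log2 size of at least 0.5 in both batches, in a gene read, within each batch, in 20% or more of one group's cells. Both batches of a day 9 genotype shared 1 plate (234 for WT, 236 for 3AKO and 238 for 3BKO). Both WT day 3 batches lay on plate 209. Genotype or day and plate therefore cannot be told apart in these contrasts, even where the batches agree. Mbd1 and Mbd2 did not meet this detection limit in any of the 4 contrasts made in both batches, and the other 7 genes did.

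The 3BKO against WT contrast at day 9 asks which of these genes differed once Dnmt3b was lost. Of the 7 detected genes, Ehmt2 and Suv39h1 passed, both lower in 3BKO, and none passed as higher. Over all 9235 detected genes, 14.8% passed as lower and 9.41% as higher. The median log2 ratio of the 7 genes was -0.47 (-0.13 in batch 1 and -0.57 in batch 2), beside -0.08 for all detected genes. Of the 7, 3 had positive ratios and 4 negative ones.

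Ehmt2 read 46.4 and 51.6 CPM in the WT day 9 libraries of batch 1 and batch 2, and 24.9 and 25.2 CPM in the 3BKO libraries. The 2 pairs did not overlap, and the batches of each genotype lay close together. The log2 ratio was -0.92 (Poisson interval -1.08 to -0.75), with -0.87 in batch 1 and -1.004 in batch 2. The share of cells with an Ehmt2 read was close, at 57.3% in WT and 55.2% in 3BKO unthinned, and 44.9% and 46.3% after thinning, with exact binomial 95% intervals that overlap. The 75th percentile over cells was 56.99 CPM in WT and 51.02 CPM in 3BKO. Single cells were thus closer than the sums, and 47.8% of 3BKO cells (exact binomial 95% interval 35.4 to 60.3) stood above the WT median of their batch. With each cell thinned to 50000 reads ahead of summing, the ratio was -0.52 and Ehmt2 no longer passed in both batches.

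Suv39h1 read 36.03 and 94.6 CPM in the WT day 9 libraries and 23.2 and 19.7 CPM in the 3BKO libraries. The WT batch 2 library was the highest of all 12, and the difference was over 2 log2 units in batch 2 only. The log2 ratio was -1.36 (-1.53 to -1.19) over both batches, -0.61 in batch 1 alone and -2.21 in batch 2. A single cell gave 18.1% of the Suv39h1 reads of that WT library, and without the top cell of each group the ratio was -1.41. Thinned cells with a read were 42.7% in WT (32.3 to 53.6) and 32.8% in 3BKO (21.9 to 45.4), intervals that overlap. With thinning before summing the ratio was -0.60 and the gene no longer passed, and with the mean of single-cell CPM it was -0.90 and did not pass either.

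Trim28, the scaffold of the KRAB zinc finger pathway, read 527.1 and 383.1 CPM in WT and 818.6 and 456.0 CPM in 3BKO at day 9. It was higher in 3BKO within each batch, with a log2 ratio of 0.38 (0.34 to 0.43), but reached 0.5 only in batch 1 (0.63, against 0.25 in batch 2). In 3BKO, 68.7% of cells (56.2 to 79.4) stood above the WT median of their batch. Setdb1 had a ratio of -0.47 with -0.13 and -0.89 in the batches, and Mbd3 one of -0.49 with -0.17 and -0.57. Zfp57 (0.13) and Cbx5 (0.09) changed sign between batches. Mbd2 read 2.10 and 6.02 CPM in WT and 6.70 and 9.35 CPM in 3BKO, but from 11 of 89 and 12 of 67 cells, and 1 cell held 46.3% of its 3BKO reads.

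Other values moved with the 3BKO group. The summed level of the 8 pluripotent epiblast markers was 10140 CPM in 3BKO and 6739 CPM in WT at day 9, higher in both batches (12710 against 7814, and 7921 against 4684). The median depth of the 3BKO batch 2 cells was 692321 reads, against 374958 in WT. The 5 trophoblast markers summed to 105.4 CPM in 3BKO and 57.8 CPM in WT (132.3 against 68.96 in batch 1, and 82.1 against 36.3 in batch 2), with Cdx2 at 0 in both. The 6 neuroectoderm markers summed to 399.1 and 306.8 CPM (478.4 against 351.6, and 330.7 against 221.0), with Sox1 and Nes at 0 in 3BKO. The 8 meso-endoderm markers summed to 31.8 and 53.8 CPM, a gap found mainly in batch 1 (17.1 against 56.4, and 44.5 against 48.9 in batch 2). T and Foxa2 were at 0 in 3BKO only, and Mixl1 was at 0 in both groups. The cell filter kept 67 of 93 cells in 3BKO and 89 of 91 in WT. The part of cell composition, filtering and depth in the Ehmt2 and Suv39h1 differences was not tested.

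**Figure D2:**
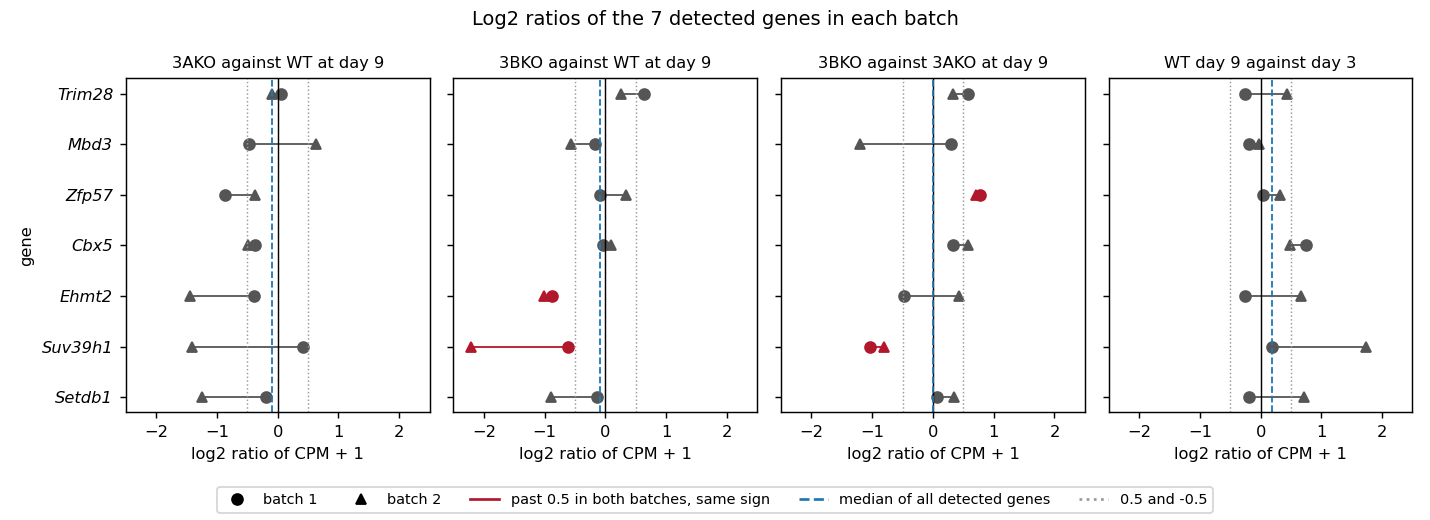
Log2 ratio of CPM + 1 (horizontal axis) of the 7 detected genes (vertical axis) in batch 1 (circles) and batch 2 (triangles) for 4 contrasts, with dotted lines at 0.5 and -0.5 and the median of all detected genes dashed. Ehmt2 and Suv39h1 lay past -0.5 in both batches of 3BKO against WT, and Zfp57 (0.77 and 0.70) and Suv39h1 (-1.04 and -0.80) passed in 3BKO against 3AKO.

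In 3AKO against WT at day 9, the same question for Dnmt3a, no detected gene of the 7 passed in either direction. Over all 9201 detected genes, 8.19% passed as lower and 4.80% as higher. All 7 summed ratios were negative, with a median of -0.40 beside -0.10 for all genes, although Trim28 (-0.02) turned to 0.06 with TMM or median-ratio scaling and Suv39h1 to 0.18 with thinned cells. The batches did not share this pattern gene by gene, since 5 of 7 ratios were negative in batch 1 and 6 of 7 in batch 2. This contrast and the one above share the same WT cells, so their values are not independent.

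Zfp57 read 139.8 and 133.6 CPM in WT and 76.5 and 103.3 CPM in 3AKO, which were the 2 lowest of its 12 libraries. The log2 ratio was -0.65 (-0.75 to -0.54), with -0.86 in batch 1 and -0.37 in batch 2. The gene passed as lower when cells were thinned before summing, where its ratio was -0.72. Only 37.5% of 3AKO cells (27.4 to 48.5) stood above the WT median of their batch, and thinned cells with a read were 62.5% (51.5 to 72.6) against 71.9% (61.4 to 80.9).

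Cbx5 read 270.6 and 325.9 CPM in WT and 209.8 and 232.2 CPM in 3AKO at day 9. Its ratio of -0.40 (-0.47 to -0.33) held in both batches (-0.37 and -0.49) without reaching 0.5. Ehmt2 was lower in both 3AKO libraries (35.04 and 18.4 CPM) than in either WT library, with ratios of -0.40 in batch 1 and -1.44 in batch 2. Over both batches its ratio was -0.76, beside -0.92 in 3BKO against WT, so lower summed Ehmt2 was not particular to 3BKO. Setdb1 had -0.19 and -1.24, from 29.5 and 16.4 CPM in 3AKO against 33.9 and 39.99 CPM in WT. For Mbd3 (-0.47 and 0.63) and Suv39h1 (0.42 and -1.41) the batches pointed in opposite directions, so no direction is given. The 8 pluripotent epiblast markers summed to 6471 CPM in 3AKO and 6739 CPM in WT. The batches went opposite ways (7333 against 7814 in batch 1, and 5257 against 4684 in batch 2). The 5 trophoblast markers summed to 95.8 and 57.8 CPM, with Cdx2 and Elf5 at 0. That gap lay mainly in batch 1 (132.9 against 68.96, and 43.4 against 36.3 in batch 2). Their part in these values was not tested.

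With the 2 mutants set directly against each other at day 9, Zfp57 and Suv39h1 passed. Zfp57 read 131.0 and 168.5 CPM in 3BKO against 76.5 and 103.3 CPM in 3AKO, a log2 ratio of 0.78 (0.68 to 0.88) with 0.77 and 0.70 in the batches. Suv39h1 read 23.2 and 19.7 CPM in 3BKO against 48.7 and 35.04 CPM in 3AKO, a ratio of -0.98 (-1.17 to -0.78) with -1.04 and -0.80. Neither pair of libraries overlapped the other. Over all 9152 detected genes, 13.4% passed as higher in 3BKO and 13.6% as lower, beside 1 and 1 of the 7 genes here. A count of 1 in 7 in each direction is close to those shares.

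The Zfp57 ratio stayed between 0.70 and 0.81 and the Suv39h1 ratio between -1.04 and -0.76 over the 12 alternative settings run on them. The shares of cells went the same way, but the intervals of each pair overlap. These intervals cover the draw of cells within 1 group and do not test the genotypes. Thinned cells with a Zfp57 read were 82.1% in 3BKO (70.8 to 90.4) and 62.5% in 3AKO (51.5 to 72.6). Those with a Suv39h1 read were 32.8% in 3BKO (21.9 to 45.4) and 53.4% in 3AKO (42.5 to 64.1). Trim28 (0.58 and 0.34) and Cbx5 (0.33 and 0.57) were higher in 3BKO in both batches without passing. Ehmt2 had a ratio of -0.16 over both batches, with opposite signs in the batches (-0.47 and 0.44), as did Mbd3 (0.29 and -1.21). Setdb1 differed by 0.09 (-0.12 to 0.30). The 8 pluripotent markers summed to 10140 CPM in 3BKO and 6471 CPM in 3AKO, and their part in the Zfp57 difference was not tested.

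**Figure D3:**
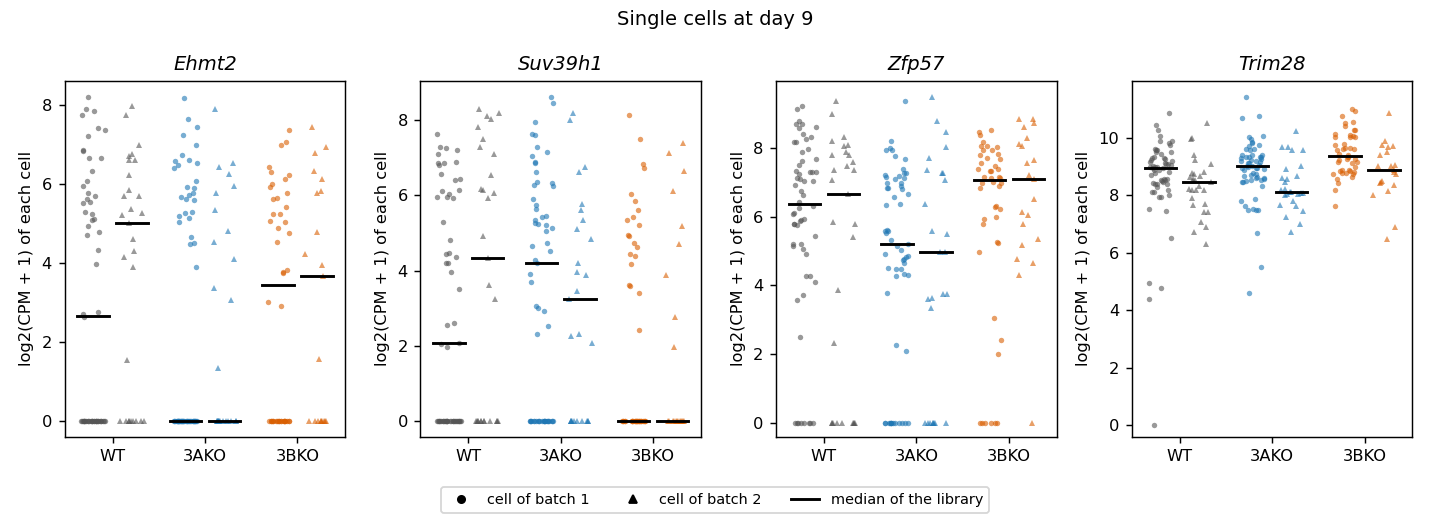
Log2(CPM + 1) of every kept day 9 cell (vertical axis) for 4 genes in WT, 3AKO and 3BKO (horizontal axis), circles for batch 1, triangles for batch 2 and a bar at the median of each library. Ehmt2 and Suv39h1 were at 0 in many cells of every genotype, the Zfp57 median was lower in 3AKO (35.8 and 30.5 CPM) than in WT (81.3 and 100.4 CPM) in both batches, and Trim28 was read in nearly all cells.

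In WT cells the 7 detected genes gave no passing difference between day 9 and day 3. Over 10162 detected genes, 18.7% passed as higher and 8.47% as lower, and with TMM scaling these shares were 11.4% and 13.1%. The median of all detected genes was 0.19 and moved to 0.03 with TMM and to -0.00 with median-ratio scaling, so small ratios in this contrast are read against that shift. The median of the 7 genes was 0.15, with -0.18 in batch 1 and 0.48 in batch 2.

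Cbx5 read 161.3 and 233.3 CPM at day 3 and 270.6 and 325.9 CPM at day 9, and its day 9 values were higher in both batches. The log2 ratio was 0.59 (0.51 to 0.66), with 0.74 in batch 1 and 0.48 in batch 2, just under the limit. It fell to 0.39 with median-ratio scaling. In batch 1, Cbx5 was also higher at day 9 in the libraries labelled 3AKO (209.8 against 157.1 CPM, log2 0.41) and 3BKO (263.7 against 173.0 CPM, log2 0.61). Suv39h1 rested on the WT day 9 batch 2 library, with 31.5 and 27.6 CPM at day 3 against 36.03 and 94.6 CPM at day 9 (0.19 and 1.74 in the batches). Trim28 (-0.26 and 0.44), Setdb1 (-0.18 and 0.72) and Ehmt2 (-0.26 and 0.67) changed sign between batches, Zfp57 differed by 0.04 and 0.32 and Mbd3 by -0.19 and -0.02.

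The shares of cells with a read and the summed levels of Ehmt2 and Setdb1 did not move together in WT. Thinned cells with an Ehmt2 read were 75.9% at day 3 and 44.9% at day 9, while its summed level was 45.7 and 48.2 CPM. For Setdb1 the shares were 69.6% and 44.9%, and the levels 32.3 and 35.95 CPM. Because shares and levels disagreed, no order of the days is read from them. Cells at day 9 also showed fewer genes at equal reads (a median of 4529 against 5532), and over 8122 genes the share changed by a median of -9.47 percentage points.

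A share lower by at least 20 points in both batches was seen for Setdb1 alone among the 7 genes (-25.4 and -23.2), and for 10.1% of all genes. Ehmt2 moved by -38.1 and -15.7 points. In batch 1 of the libraries labelled 3AKO, Ehmt2 was the 1 gene of 7 past 20 points (82.8% to 42.6%), beside 19.1% of all genes, and there its level moved the same way, from 60.4 to 35.04 CPM. In batch 1 of the libraries labelled 3BKO, Ehmt2 (74.1% to 45.7%, and 44.4 to 24.9 CPM) and Suv39h1 (61.1% to 32.6%, and 43.5 to 23.2 CPM) passed, beside 25.2% of all genes. Suv39h1 went the other way in 3AKO, from 39.7% to 54.1% of cells and from 21.2 to 48.7 CPM.

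**Figure D4:**
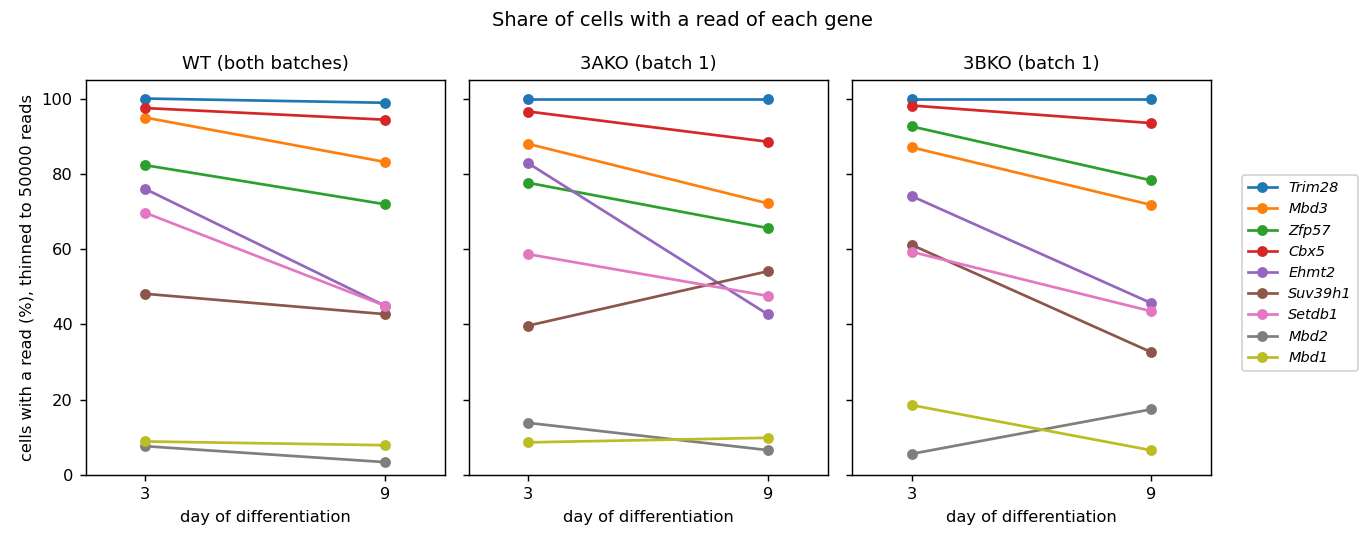
Share of cells with a read of each gene after thinning to 50000 reads (vertical axis, percent) at day 3 and day 9 (horizontal axis) in WT (both batches) and in batch 1 of the libraries labelled 3AKO and 3BKO. The Ehmt2 line ended at 42.6 to 45.7% in the 3 panels, Trim28 started and ended near 100%, and Suv39h1 ended at 54.1% in 3AKO and 32.6% in 3BKO.

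At day 3, batch 1 allowed a comparison of each mutant label with WT, with no second batch to check it. The library labelled 3AKO had a median log2 ratio of -0.21 over its 9 detected genes, and the library labelled 3BKO one of -0.19 over 8, beside 0.01 for all genes in each. Mbd3 was lowest in the 3BKO label at 104.7 CPM, against 177.6 CPM in WT and 139.6 CPM in the 3AKO label, a log2 ratio of -0.76 (-0.90 to -0.61) for 3BKO. Setdb1 read 24.4 CPM in the 3AKO label and 30.9 CPM in the 3BKO label against 38.6 CPM in WT. Suv39h1 was 21.2 and 43.5 CPM in the 3AKO and 3BKO labels against 31.5 CPM in WT. Ehmt2, at 60.4 and 44.4 CPM against 55.8 CPM, stood on either side of WT.

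In the 2 batch 2 libraries with doubtful labels, Zfp57 was higher than in the matching WT library (107.1 CPM) under both labels, at 194.8 CPM in the library labelled 3AKO and 175.9 CPM in the one labelled 3BKO. The top cell of each library gave 23.3% and 31.3% of these Zfp57 reads, and the cell medians were 176.6 and 117.8 CPM against 83.8 CPM in WT. Suv39h1 was at its lowest, 9.53 CPM, in the library labelled 3BKO, where 1 cell held 65.96% of its reads. Mbd3 (78.1 and 97.0 CPM) and Setdb1 (26.4 and 20.7 CPM) lay near the WT values of 76.9 and 23.9 CPM. Mbd1 and Mbd2 stayed under 9 CPM in all 4 day 3 mutant libraries.

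The partners of these proteins were described from 56 genes in 5 lists. In 3AKO against WT at day 9, 48 were detected, 7 passed as lower and none as higher, beside the 8.19% and 4.80% of all genes given above, and their median was -0.17. The 7 were Mbd4, a methyl-CpG binding glycosylase (16.4 against 35.3 CPM), Gatad2b of NuRD (15.2 against 42.8 CPM) and Zfp445, a second KRAB zinc finger guardian of imprints (17.9 against 40.3 CPM). The others were the remodeller Smarcad1, the chromosomal protein Smchd1 and the demethylases Kdm1a and Kdm3a, with log2 ratios of -0.81 to -0.61. By list, 1 of 5 detected methyl-CpG readers, 1 of 11 NuRD subunits, 2 of 11 TRIM28 and SETDB1 partners, 1 of 15 HP1 and lysine 9 methylation partners and 2 of 6 lysine 9 demethylases passed as lower.

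In 3BKO against WT at day 9, 3 of 48 detected partners passed as higher and 3 as lower, with a median of -0.01, where 9.41% and 14.8% of all detected genes passed. Zbtb38, a methyl-CpG binding zinc finger protein (82.2 against 44.97 CPM), the NuRD subunit Mta2 (87.4 against 49.9 CPM) and the demethylase Phf8 (25.2 against 7.12 CPM) were higher. The NuRD subunits Chd3 (1.92 against 7.27 CPM) and Mta1 (3.10 against 9.79 CPM) and the demethylase family member Jmjd1c were lower. Chd3 lay near the detection limit, with 58 summed reads in 17.9% of 3BKO cells and 253 in 22.5% of WT cells. Ehmt1 and Wiz, the partners of EHMT2, did not pass in either mutant against WT, and Suv39h2, the paralogue of Suv39h1, did not pass either. Between the mutants, 7 of 48 partners were higher in 3BKO and 2 lower, where 13.4% and 13.6% of all detected genes passed. Among the higher were Smarcad1 (150.4 against 74.7 CPM), Hdac1 (308.6 against 194.1 CPM) and Kdm3a (188.1 against 95.7 CPM). Wiz was lower in 3BKO than in 3AKO (3.67 against 8.63 CPM), although 22.7% of its exonic bases are shared with opposite-strand genes.

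From day 3 to day 9 in WT, 5 of 50 detected partners passed as higher and 5 as lower, where 18.7% and 8.47% of all detected genes passed. Uhrf1, which guides maintenance methylation to hemimethylated CpG, fell from 262.9 to 91.3 CPM, with log2 ratios of -1.57 and -1.58 in the batches. Atf7ip, the stabilising partner of SETDB1, rose from 52.7 to 135.3 CPM (1.44 and 1.05), and the HUSH subunit Tasor, which shares 12.9% of its exonic bases with Ccdc66, fell from 82.5 to 37.9 CPM (-0.94 and -1.01). The NuRD motor Chd4 fell from 77.3 to 53.6 CPM while Chd3 rose from 1.83 to 7.27 CPM. Chd3 lay near the detection limit, with 36 summed reads in 12.7% of day 3 cells and 253 in 22.5% of day 9 cells. A single cell held 29.6% of its day 9 reads. Setdb1 itself, between these partners, had a ratio of 0.15 with batches of opposite sign.

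The 9 genes did not move as a block over the 12 libraries. Their closest pairs by Pearson's r of log2(CPM + 1) were Setdb1 with Ehmt2 (0.66), Mbd3 with Trim28 (0.64) and Setdb1 with Suv39h1 (0.58), and Mbd3 with Cbx5 was the most opposed (-0.56). These points share batch, day and depth, and are given as a description. Among 6106 other genes, the most alike were Asf1a (0.96) and Nmt2 (0.95) for Cbx5, Edc4 (0.95) for Trim28, Mtor (0.94) for Mbd3 and Ltbp4 (0.89) for Ehmt2. The next were Zfp74 (0.88) for Mbd2, Scamp5 (0.87) for Setdb1, Tor1aip1 (0.87) for Suv39h1, Ylpm1 (0.85) for Zfp57 and Ddc (0.75) for Mbd1.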

How the data were processed

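Single-cell Smart-seq2 libraries of 550 cells were analysed. The deposited values are counts of reads per gene, made by the authors with FastQC 0.11.2, Trim Galore 0.5.0, STAR 2.7.1a and featureCounts 1.6.1 on GRCm38 and GENCODE M23, with reads mapping to several places left out. Another 26 columns of empty or pooled wells were not used. Cells with at least 50000 reads, 2000 genes and at most 50% mitochondrial reads were kept (486), and reads were summed by genotype, day and batch (21 to 61 cells, 8071118 to 22867811 reads) with Python 3.11.15 and a pseudocount of 1 CPM. Groups followed the labels. With 1 sample per group there was no test and no p-value, and intervals cover counting error only. All 9 genes were named, with partners that passed or were open to naming, and 1 partner gene is not reported here. The genes, lists and limits were chosen with earlier results of these data known, and the 20-point limit on shares after the values were seen. On simulated data, the rule recovered 92.0% of 200 genes changed by 2-fold among 9235 in 3BKO against WT at day 9. These data were Poisson counts drawn around the WT library sums, without variation between cells. The recovery thus covers counting error only and does not give the error rate of the rule in the real cells. No doublet caller was run, as each cell was sorted into a well. Alternatives were cell filters, batches, scaling by TMM (edgeR 4.0.16) or median-ratio factors (DESeq2 1.42.0), thinning, pseudocounts, detection and fold limits. Exon lengths and positions came from GENCODE vM21 (97.0% of names matched), and promoter windows from RefSeq on GRCm38.p6.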

Additional observations from a re-analysis of the deposited data

Results flagged for a closer look

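Suv39h1 differed in direction between the mutant labels from day 3 to day 9 in batch 1, with a log2 ratio of 1.16 under the 3AKO label and -0.88 under the 3BKO label, and the difference was not tested. At day 9, 2 partners moved one way in both batches of 3AKO against WT and the opposite way in both batches of 3BKO against WT, again untested. The log2 ratio of Smarcad1 was -0.66 for 3AKO (-0.53 and -0.91 in batches 1 and 2) against 0.34 for 3BKO, where each batch gave less (0.14 and 0.18). That of Kdm3a was -0.66 (-0.65 and -0.70) against 0.30 (0.11 and 0.39). The 2 mutants were set against the same WT cells.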

How the results depend on the processing

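No paired analysis was possible because no test was made, each group being 1 sample. Of 432 log2 ratios of the 9 genes under the alternatives, 295 stayed within their Poisson interval and 137 moved outside it. A change of sign was counted only for genes that passed, and 0 were found. A passing gene has the same sign in both batches by definition, so neither batch alone could reverse it. Ratios that did not pass could change sign, as for Trim28 in 3AKO against WT (-0.09 to 0.12) and Ehmt2 in WT day 9 against day 3 (-0.26 to 0.67). The median of the detected genes moved in 12 of 72 cases. For 3BKO against WT at day 9 (-0.47) it was -0.13 in batch 1 alone and -0.25 with the mean of single-cell CPM. For 3AKO against WT (-0.40) it was -0.25 with thinned cells, -0.32 with TMM and -0.32 with median-ratio factors. For 3BKO against 3AKO (0.09) it was 0.35 in batch 2 alone and -0.17 without the top cell of each gene. For WT day 9 against day 3 (0.15) it was -0.18 in batch 1 alone, 0.48 in batch 2 alone and -0.05 with median-ratio factors. Without a cell filter, the batch 1 medians of the 3BKO label were -0.00 against WT at day 3 and -0.24 for day 9 against day 3 (-0.19 and 0.03 with the filter).

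The number of genes that passed was 2 for 3BKO against WT. It was 1 (Ehmt2) with the mean of single-cell CPM and with a pseudocount of 10, and 0 with thinned cells and at a log2 ratio of at least 1. For 3BKO against 3AKO, 2 became 0 at a log2 ratio of at least 1 and 4 at 0.25. For 3AKO against WT, 0 became 1 (Zfp57) with thinned cells and 3 at 0.25, and for WT day 9 against day 3, 0 became 1 (Cbx5) at 0.25. The limits set these last changes by construction, and the cause of the others was not tested. Shares of cells with a read lay outside the thinned interval in 27 of 54 cases without thinning. Depth limits Mbd1 and Mbd2 most, with at most 246 summed reads in a day 9 group.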
